A study of Mus musculus with 18 samples.

Results

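The AP-1, ATF and early response factors were taken as 10 genes given by name: Fos, Fosb and Fosl2 of the FOS family, Jun, Junb and Jund of the JUN family, and Atf3, Batf, Maff and Egr1. Of these 10, 8 had a row in the deposited files and 6 (Fos, Fosl2, Atf3, Batf, Maff and Egr1) were among the 9707 genes tested, out of 13598 genes with a value. RNA-seq covered macrophages lavaged from the peritoneum of WT mice and of mice carrying TLR4-K730R or TLR4-K810R, in which 1 lysine of the intracellular TIR domain of the LPS receptor TLR4 is replaced by arginine through the germline. The mutants were made with CRISPR/Cas9 on the C57BL/6 background, and the cells of all groups had been elicited with thioglycolate medium, so that the control cells had already been recruited by an inflammatory stimulus. Cells of each genotype were left as control or received LPS at 100 ng/ml for 6 h, which gave 6 groups of 3 libraries. Neither age nor sex of the mice was given, and nothing states that the 3 libraries of a group came from different animals, so that p-values measure the spread between these libraries, which may be technical.

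AP-1 is a dimer of basic leucine zipper (bZIP) proteins. FOS proteins pair with JUN proteins and cannot bind DNA stably alone, whereas JUN, BATF and ATF3 also take part in other pairs, and small MAF proteins such as MAFF lack a transactivation domain and pair with CNC factors. EGR1 is a zinc finger protein that belongs to the same wave of immediate early genes. Their transcripts typically appear within minutes of a stimulus through MAP kinases and serum response factor and are short-lived, so that a sample taken hours after LPS shows what remains or is made late. In macrophages, ATF3 is known as a brake on TLR4-driven cytokine genes, and BATF proteins pair with JUN proteins beside IRF factors.

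For each gene, the first-exon rows and the last-exon rows of a library were summed and the higher sum was used. FPKM is a level scaled to length and to the fragments of the library, and rows exist only for events with expression. The last exons of Egr1 and Maff were rarely listed, so that levels of different genes can be compared only roughly. Fos (ENSMUSG00000021250) lies on the plus strand of chromosome 12 from 85473890 to 85477273 in GRCm38, and Batf (ENSMUSG00000034266) lies on the same strand from 85686669 to 85709087, with 213 kb between the starts of both genes. Fosl2 (ENSMUSG00000029135) lies on the plus strand of chromosome 5 from 32135801 to 32157842, Atf3 (ENSMUSG00000026628) on the minus strand of chromosome 1 from 191170296 to 191218039, and Maff (ENSMUSG00000042622) on the plus strand of chromosome 15 from 79346621 to 79359076. Jun and Junb had no row in any library. Jund was listed in replicate 1 of WT control alone, at 8.49 FPKM, with a first exon that begins upstream of the annotated gene. Fosb was listed at 0.25 FPKM in replicate 1 and at 0.10 FPKM in replicate 3 of WT control and in no other library. Rows were scarce for genes without introns, since 36 of 1344 protein-coding genes with 1 exon in every transcript had one (2.68%), against 12323 of 20684 other protein-coding genes (59.6%). Jun and Jund have 1 exon, so that their missing rows do not show a lack of expression, and the JUN partners of AP-1 are not analysed here.

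The promoters of Fos and Batf are shown because the levels of these genes, whose starts lie 213 kb apart, went opposite ways after LPS. Those of Maff are shown because its 3 promoters belong to starts that were listed separately. The windows hold 250 bases before and 50 bases after a RefSeq transcript start (GRCm38.p6, plus strand, 5′ to 3′), at chr12:85473640-85473939, chr12:85686470-85686769, chr15:79346371-79346670, chr15:79347270-79347569 and chr15:79348152-79348451 in this order. Capitals mark the matches, on either strand, to the full CRE (TGACGTCA), the AP-1 site (TGANTCA), the CRE core (TGACG, which a full CRE also contains), the EGR site (GCGNGGGCG), the CArG box of serum response factor and the NF-κB site.
Fos: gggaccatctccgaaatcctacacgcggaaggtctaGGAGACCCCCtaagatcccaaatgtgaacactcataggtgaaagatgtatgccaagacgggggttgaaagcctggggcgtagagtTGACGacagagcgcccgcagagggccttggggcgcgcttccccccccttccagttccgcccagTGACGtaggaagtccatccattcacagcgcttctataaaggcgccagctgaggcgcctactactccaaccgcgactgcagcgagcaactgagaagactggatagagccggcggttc
Batf: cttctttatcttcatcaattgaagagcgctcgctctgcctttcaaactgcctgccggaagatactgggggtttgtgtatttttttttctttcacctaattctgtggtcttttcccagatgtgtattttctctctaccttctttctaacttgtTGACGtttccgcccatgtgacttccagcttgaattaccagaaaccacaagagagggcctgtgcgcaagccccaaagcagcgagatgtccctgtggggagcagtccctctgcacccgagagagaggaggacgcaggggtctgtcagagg
Maff (upstream start): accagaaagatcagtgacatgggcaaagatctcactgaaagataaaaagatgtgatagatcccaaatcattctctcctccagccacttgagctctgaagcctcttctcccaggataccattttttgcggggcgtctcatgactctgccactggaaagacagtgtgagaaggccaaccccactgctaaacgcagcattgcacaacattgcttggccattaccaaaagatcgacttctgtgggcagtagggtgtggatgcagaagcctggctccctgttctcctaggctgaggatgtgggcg
Maff (main start): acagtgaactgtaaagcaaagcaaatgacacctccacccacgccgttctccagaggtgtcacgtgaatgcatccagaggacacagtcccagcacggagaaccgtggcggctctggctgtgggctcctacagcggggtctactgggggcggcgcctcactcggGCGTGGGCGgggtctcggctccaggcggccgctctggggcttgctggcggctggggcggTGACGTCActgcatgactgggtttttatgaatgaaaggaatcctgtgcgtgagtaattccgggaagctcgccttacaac
Maff (downstream start): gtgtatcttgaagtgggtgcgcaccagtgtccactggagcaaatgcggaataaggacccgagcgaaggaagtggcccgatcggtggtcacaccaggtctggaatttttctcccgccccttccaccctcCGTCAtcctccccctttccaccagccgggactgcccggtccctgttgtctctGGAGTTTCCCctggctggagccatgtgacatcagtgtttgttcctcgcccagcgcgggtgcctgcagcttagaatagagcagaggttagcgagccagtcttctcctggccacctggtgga

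The Fos window held a CRE core 129 and another 66 bases before the start and an NF-κB site 214 bases before it, and the Batf window held a CRE core 98 bases before the start. The window of the main Maff start was the only one of the 11 member windows in the table with a full CRE, 29 bases before the start, and it also held an EGR site 88 bases before the start. The downstream Maff window held a CRE core 122 and an NF-κB site 70 bases before the start, and the upstream one held none of these motifs. Among 32851 mouse promoters of 300 bases, 1.79% held the full CRE, 7.81% the AP-1 site, 20.8% the CRE core, 5.55% the EGR site, 1.63% the CArG box and 8.46% the NF-κB site. No member window held the AP-1 site or the CArG box in these letters. The windows begin 250 bases before the start, so that sites further upstream were not searched. A promoter was matched for 9 of the 10 members. Of the windows not printed, that of Fosl2 held an EGR site 79 bases before the start and a pair of overlapping NF-κB sites 182 and 181 bases before it. The Fosb window held a CRE core, an EGR site and an NF-κB site, and those of Atf3 and Junb a CRE core. The RefSeq start of Batf lies inside the first exon in the files (85686669 to 85686973), so that its window is not placed on the start of that exon. The whole Fosl2 window begins at 32136222, inside its main first exon (32135330 to 32136805). Its distances are therefore not from the start of that exon.

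The files hold no read counts, so that the depth behind each value is unknown and no counting interval can be given. Of the 8 macrophage markers, Itgam had no row and Cd14 was at 0 in every library of 5 groups. In TLR4-K810R LPS Cd14 ranged from 0 to 463 FPKM. Zeros of markers can be missing rows, so that they do not show a lack of expression. The summed level of the list was 11633 to 14785 FPKM in control and 7289 to 10057 after LPS, most of it from Lyz2. Of 7 T cell markers 6 were listed with a sum of 0 to 0.96 FPKM, and Cd3e was at 0 throughout 5 groups. Mast cell markers summed to at most 5.25 FPKM, eosinophil markers to 2.73 and dendritic cell markers to 1.63. Across genes, replicates 3 of WT LPS and of TLR4-K730R LPS resembled another genotype more than their own, and replicate 2 of WT LPS was as close to TLR4-K730R LPS as to its own group (mean r = 0.967 each). Replicate 3 of WT LPS correlated at a mean r of 0.968 with TLR4-K810R LPS and of 0.967 with TLR4-K730R LPS (0.970 with its replicates 1 and 2), against 0.964 with WT LPS, and replicate 3 of TLR4-K730R LPS correlated with replicates 1 and 2 of WT LPS at 0.969 and 0.974 and with its own group at 0.963 and 0.966. Labels were kept, and values without both replicates 3 are given for the members that this moved most, a setting chosen after seeing the data. Replicate 3 of TLR4-K810R control correlated with the WT control libraries at 0.941 to 0.945, below the 0.968 to 0.973 among the WT control libraries. The median LPS difference of all tested genes was -0.28 in WT, -0.36 for TLR4-K730R and -0.26 for TLR4-K810R on the log2(FPKM + 1) scale, and changes of the members close to it are also given relative to it.

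In all 3 genotypes Fos fell after LPS, while Fosl2 and Batf rose, and the calls of Atf3, Maff and Egr1 varied with the genotype and the setting. No library of a control group overlapped a library of the LPS group for any of the 6 tested members in any genotype. With limma's test at an adjusted p below 0.01, 3 members were called in WT, where 34.3% of all tested genes were called, 5 in TLR4-K730R, where 35.8% were called, and 6 in TLR4-K810R, where 28.8% were called. Without replicates 3 of WT LPS and of TLR4-K730R LPS, 3 members and 35% of all tested genes were called in WT, against 5 members and 31.7% in TLR4-K730R. Libraries of control and LPS did not overlap for 55% of all tested genes in WT, for 58.8% in TLR4-K730R and for 52.5% in TLR4-K810R. The median of the 6 members was a log2 difference of 0.10 in WT, of 0.26 in TLR4-K730R and of 0.17 in TLR4-K810R, with 3 members above 0 and 3 below in each. Differences were taken after adding 1 to the FPKM, so that those of weakly expressed genes come out too small. Markers of cell types also differed with LPS. Of the 6 tested macrophage markers, WT and TLR4-K730R each had 4 called lower and 1 higher, against 1 lower and 2 higher in TLR4-K810R, and the sum of the 7 listed ones in WT was 13470 to 14785 FPKM in control and 7289 to 9465 after LPS. Nearly all of this sum was Lyz2 (12484 FPKM in WT control and 7031 after LPS, as means). In WT the means of Cd68, Csf1r and Mertk also fell, that of Fcgr1 rose from 50.1 to 318 FPKM, and Adgre1 was at 220 and 222 FPKM. The summed level of the 6 listed neutrophil markers (of 7) was 25.4 to 47.3 FPKM in control and 172 to 245 after LPS, and nearly all of it was S100a8 (29.0 FPKM in WT control and 207 after LPS, as means). Of the 4 tested neutrophil markers, S100a8 and Camp were called higher in all 3 genotypes, Retnlg was called lower in WT, S100a9 was not called, and Ly6g and Mpo were at 0 in every WT library. Dcn, a fibroblast marker, was called higher in WT, and the intestinal markers Fabp1 and Epcam were called lower in TLR4-K810R. The part of these cells in the LPS results was not tested.

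**Figure D1:**
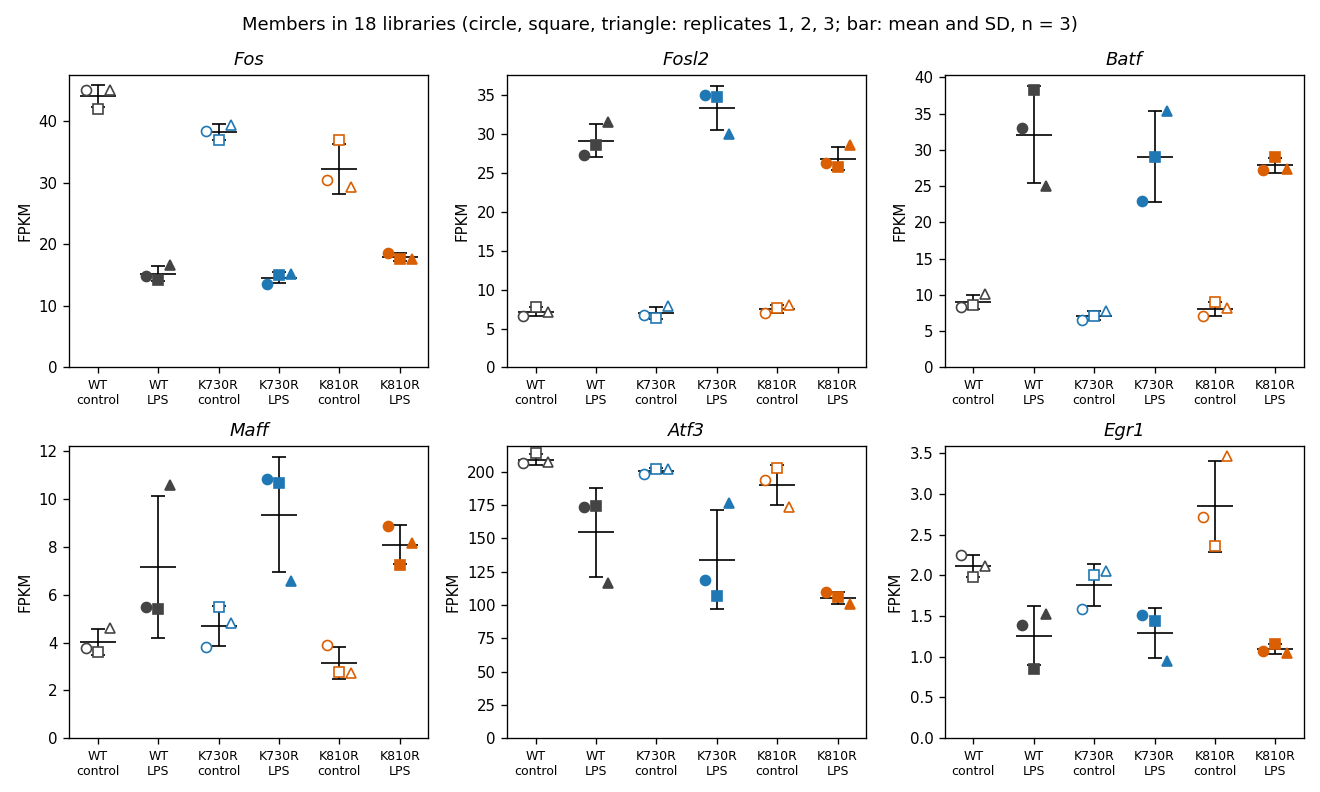
FPKM of the 6 tested members in each of the 18 libraries, by group (open symbols are control and filled symbols LPS, and the bar is the mean with its SD, n = 3). Fos lies between 29.4 and 45.1 FPKM in control and between 13.5 and 18.6 after LPS, Fosl2 and Batf do the reverse, and replicate 3 of WT LPS and of TLR4-K730R LPS sit apart from their own groups for Atf3 and Maff.

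Fos, the founding FOS protein and a short-lived immediate early factor, stood at 45.1, 41.9 and 45.1 FPKM in the 3 WT control libraries and at 14.8, 14.3 and 16.7 FPKM after LPS. In TLR4-K730R it was 38.5, 36.9 and 39.4 FPKM in control and 13.5, 15.0 and 15.1 after LPS, and in TLR4-K810R 30.4, 36.9 and 29.4 FPKM in control and 18.6, 17.6 and 17.6 after LPS. Every LPS library was thus below every control library. The log2 difference was -1.48 in WT (SE 0.10, adjusted p = 8.90e-09 from limma), -1.34 in TLR4-K730R (SE 0.10, adjusted p = 2.53e-08) and -0.80 in TLR4-K810R (SE 0.10, adjusted p = 9.66e-06). Relative to the median gene these were -1.20, -0.98 and -0.54. Nearly all of the first-exon signal of Fos (98.4%) came from the annotated first exon of 291 bases, and 2 internal first exons carried the remainder.

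Fosl2, which encodes the FOS protein FRA-2, stood at 6.62, 7.77 and 7.12 FPKM in WT control and at 27.3, 28.6 and 31.5 FPKM after LPS. It was 6.79, 6.33 and 7.91 FPKM in TLR4-K730R control and 35.1, 34.8 and 30.1 after LPS. In TLR4-K810R it was 7.01, 7.62 and 8.01 FPKM in control and 26.2, 25.7 and 28.6 after LPS. Control levels overlapped between the 3 genotypes and every LPS library was far above them. The log2 difference was 1.88 in WT (SE 0.11, adjusted p = 1.25e-09 from limma), 2.10 in TLR4-K730R (SE 0.11, adjusted p = 3.13e-10) and 1.70 in TLR4-K810R (SE 0.11, adjusted p = 3.69e-09).

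The make-up of the FOS family therefore turned over. Fosl1, which encodes FRA-1 and is no member, rose from 0.68 ± 0.18 to 3.12 ± 0.60 FPKM in WT (SD, n = 3 each) and was called in all 3 genotypes. The sum of Fos, Fosl1 and Fosl2 was 51.9 ± 1.51 FPKM in WT control and 47.5 ± 3.69 after LPS (SD, n = 3 each), with overlap. In the mutants every LPS library had a higher sum than every control library, by narrow margins, and the sums were not tested. Libraries of control and LPS did not overlap for 58.8% of all tested genes in TLR4-K730R and for 52.5% in TLR4-K810R. The sums of TLR4-K730R ranged from 43.5 to 48.12 FPKM in control and from 48.15 to 54.0 after LPS, and those of TLR4-K810R from 38.5 to 45.68 and from 45.75 to 50.2. The share of Fos in this sum was 84.9% ± 1.31 in WT control and 32.1% ± 0.53 after LPS, and that of Fosl2 was 13.8% ± 1.46 and 61.4% ± 1.54 (SD, n = 3 each). In TLR4-K730R the share of Fos went from 83.4% ± 1.49 to 28.4% ± 2.80, and in TLR4-K810R from 78.3% ± 2.87 to 37.6% ± 2.27 (SD, n = 3 each). Fosl2 was thus the most abundant listed FOS transcript in all 9 LPS libraries and Fos in all 9 control libraries.

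**Figure D2:**
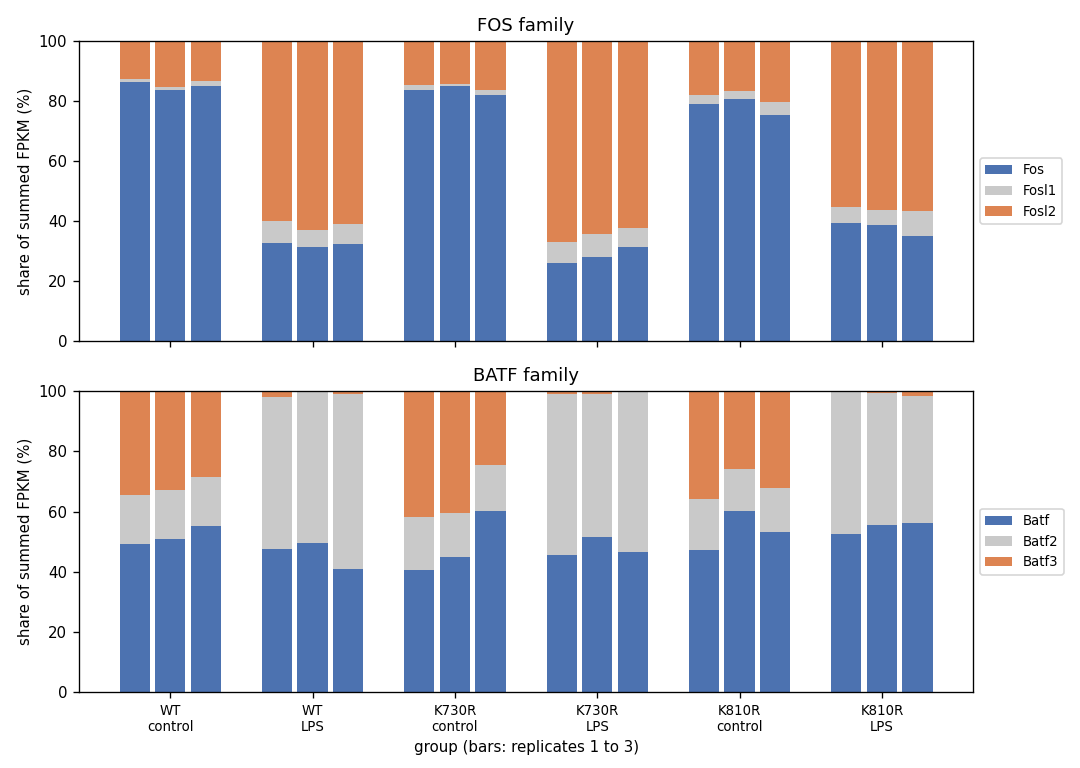
Share of each gene in the summed FPKM of the FOS family (Fos, Fosl1, Fosl2) and of the BATF family (Batf, Batf2, Batf3), one bar per library, with replicates 1 to 3 side by side in each group. The Fos share is 75.1% to 86.1% in control libraries and 25.9% to 39.2% in LPS libraries, and Batf3 gives way to Batf2 after LPS while the Batf share stays between 40.7% and 60.2%.

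Batf, an AP-1 factor without a transactivation domain of its own, stood at 8.31, 8.54 and 10.1 FPKM in WT control and at 33.0, 38.3 and 25.0 FPKM after LPS. In TLR4-K730R it was 6.52, 7.11 and 7.75 FPKM in control and 22.9, 29.1 and 35.3 after LPS, and in TLR4-K810R 7.08, 9.02 and 8.24 FPKM in control and 27.2, 29.0 and 27.4 after LPS. The rise was called in all 3 genotypes, with a log2 difference of 1.71 in WT (SE 0.16, adjusted p = 3.76e-07 from limma), 1.87 in TLR4-K730R (SE 0.16, adjusted p = 1.32e-07) and 1.67 in TLR4-K810R (SE 0.16, adjusted p = 5.88e-07). The LPS libraries of WT and TLR4-K730R were spread widely, and replicate 3 was the lowest of WT and the highest of TLR4-K730R. Batf2, a paralogue known as interferon-inducible, rose from 2.80 ± 0.14 to 36.4 ± 1.82 FPKM in WT, and Batf3, a paralogue known from dendritic cell development, fell from 5.53 ± 0.29 to 0.64 ± 0.50 FPKM (SD, n = 3 each). The share of Batf in the sum of these 3 paralogues was 51.8% ± 3.07 in WT control and 46.1% ± 4.60 after LPS (SD, n = 3 each).

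Maff, a small MAF protein, stood at 3.79, 3.61 and 4.63 FPKM in WT control and at 5.48, 5.39 and 10.6 FPKM after LPS. It was 3.80, 5.48 and 4.82 FPKM in TLR4-K730R control and 10.8, 10.7 and 6.57 after LPS. In TLR4-K810R it was 3.91, 2.77 and 2.74 FPKM in control and 8.87, 7.26 and 8.18 after LPS. Replicate 3 was the highest WT LPS library and the lowest TLR4-K730R LPS library. The log2 difference was 0.65 in WT (SE 0.23, adjusted p = 0.0279 from limma, not called), 0.84 in TLR4-K730R (SE 0.23, adjusted p = 0.00616) and 1.15 in TLR4-K810R (SE 0.23, adjusted p = 0.000769). Without both of these libraries it was 0.37 in WT (adjusted p = 0.0768) and 1.05 in TLR4-K730R (adjusted p = 0.000130), and after median-of-ratios scaling of the libraries it was 0.93 in WT (adjusted p = 0.00228). The call in TLR4-K730R was also lost on leaving out any one of replicates 1 and 3 of control or 1 and 2 of LPS (adjusted p 0.0153 to 0.0318). Dropping the filter on low values, adding a replicate block or fitting both groups alone lost it too (adjusted p 0.0107, 0.0111 and 0.0180 from limma).

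Maff is listed with 4 first exons, which start 0, 899, 1443 and 1781 bases after the upstream one, and its last exon only in 2 libraries, so that its level rests on the first exons. The main start, the one with the full CRE, carried 74.7% of the first-exon FPKM over all libraries. It stood at 2.54, 2.92 and 4.29 FPKM in WT control and at 4.46, 3.58 and 8.84 FPKM after LPS, which overlap. In TLR4-K730R this start went from 2.78, 3.03 and 2.70 to 8.08, 9.90 and 6.08 FPKM, with no overlap. In TLR4-K810R it went from 2.65, 1.39 and 2.36 to 7.97, 6.01 and 2.16 FPKM, and in the lowest of these LPS libraries, replicate 3, the start at 1443 bases was listed at 4.55 FPKM, against at most 0.87 FPKM in every other library. The upstream start ranged from 0 to 2.45 FPKM in control and from 0.34 to 2.23 FPKM after LPS.

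**Figure D3:**
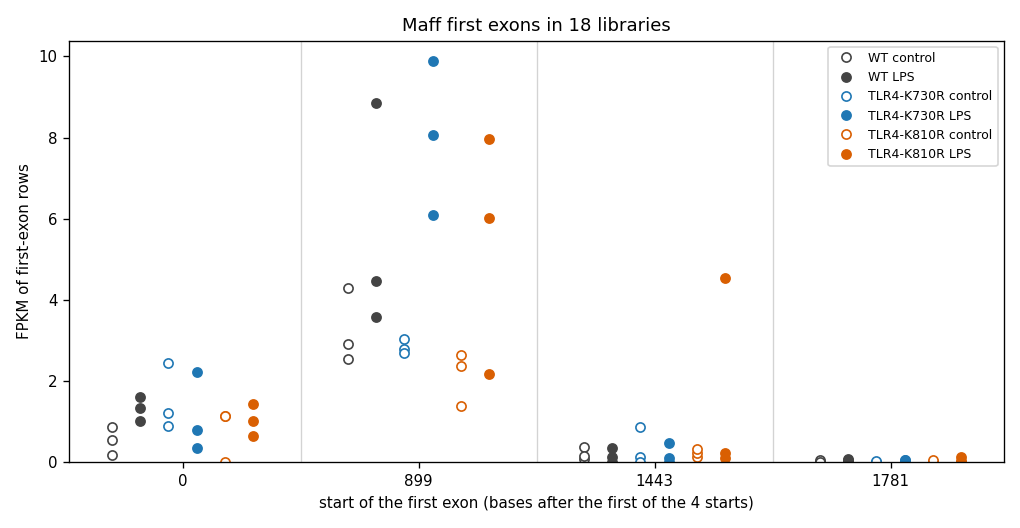
FPKM of the 4 first exons listed for Maff in each of the 18 libraries, placed by the bases between their start and the first start (1 point per library, open for control and filled for LPS). The start 899 bases downstream carries most of the signal, up to 9.90 FPKM after LPS, and the start at 1443 bases is high in 1 library alone.

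Atf3 had by far the highest FPKM of the members in every library. It stood at 206, 214 and 207 FPKM in WT control and at 174, 174 and 116 FPKM after LPS. It was 199, 202 and 202 FPKM in TLR4-K730R control and 119, 107 and 177 after LPS, and in TLR4-K810R 194, 203 and 174 FPKM in control and 110, 106 and 101 after LPS. Replicate 3 of WT LPS lay among the low values of the mutants and replicate 3 of TLR4-K730R LPS among the high values of WT. The log2 difference was -0.46 in WT (SE 0.17, adjusted p = 0.0358 from limma, not called), -0.61 in TLR4-K730R (SE 0.17, adjusted p = 0.00686) and -0.84 in TLR4-K810R (SE 0.17, adjusted p = 0.000826). Relative to the median gene these were -0.18, -0.26 and -0.58, and after median-of-ratios scaling none of the 3 was called (adjusted p 0.645, 0.451 and 0.0391). Without both replicates 3, the differences were -0.26 in WT (adjusted p = 0.0239) and -0.83 in TLR4-K730R (adjusted p = 4.56e-06). The call in TLR4-K730R was lost as well on leaving out any of its libraries except replicate 3 of LPS (adjusted p 0.0186 to 0.0396). Dropping the filter on low values, adding a replicate block or fitting both groups alone lost it too (adjusted p 0.0103, 0.0127 and 0.0348 from limma). All but 0.02% of the first-exon signal came from the proximal of 2 listed starts, and the distal one was listed in 1 library, at 0.54 FPKM.

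Egr1 (ENSMUSG00000038418, on chromosome 18), the zinc finger factor, had the lowest mean FPKM of the tested members in every group. It stood at 2.25, 1.98 and 2.12 FPKM in WT control and at 1.40, 0.85 and 1.53 FPKM after LPS. In TLR4-K730R it was 1.58, 2.01 and 2.05 FPKM in control and 1.51, 1.44 and 0.95 after LPS, and in TLR4-K810R 2.72, 2.36 and 3.46 FPKM in control and 1.07, 1.16 and 1.05 after LPS. It was called in TLR4-K810R alone, with a log2 difference of -0.87 (SE 0.16, adjusted p = 0.000379 from limma), against -0.48 in WT (SE 0.16, adjusted p = 0.0225) and -0.33 in TLR4-K730R (SE 0.16, adjusted p = 0.0965). With array weights it was also called in WT (-0.49, adjusted p = 0.00694). Relative to the median gene the differences were -0.61, -0.20 and 0.03 in this order, and after median-of-ratios scaling -0.68 (adjusted p = 0.00196), -0.28 and -0.087. The difference between the responses of TLR4-K810R and WT was -0.40 (95% confidence interval -0.87 to 0.08, adjusted p = 0.481), so that the responses were not shown to differ. The last exon of Egr1 was listed in 1 library, and its value is therefore that of the first exon.

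**Figure D4:**
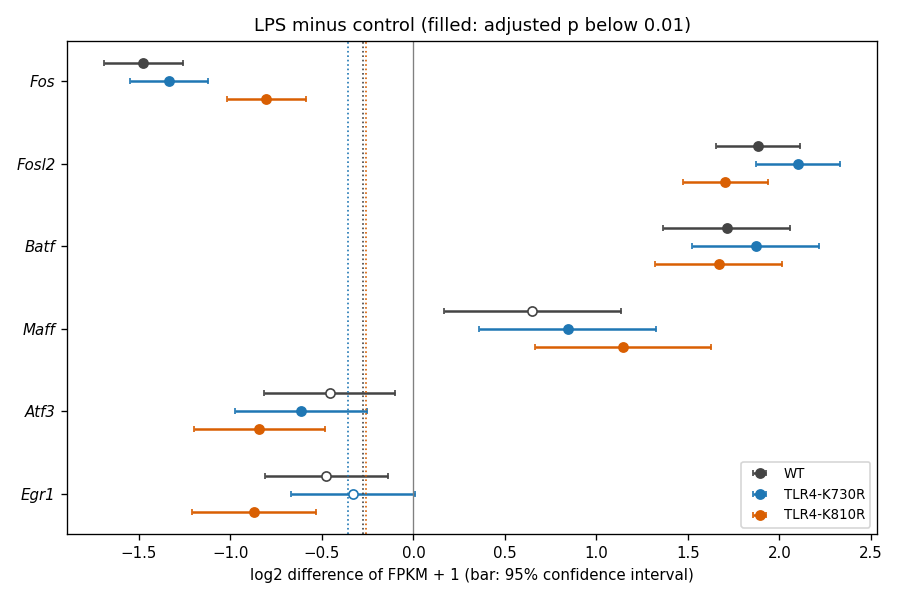
Log2 differences of FPKM + 1, LPS minus control, for the 6 tested members in each genotype, with 95% confidence intervals (filled points passed an adjusted p below 0.01, and dotted lines mark the median of all tested genes). Fosl2 and Batf lie between 1.67 and 2.10 and Fos between -1.48 and -0.80, while the Atf3 and Egr1 intervals in WT and TLR4-K730R include the median of all genes.

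Without stimulation, the mutants were compared with WT to see whether the factors started from other levels. With limma, no member was called in either comparison. In TLR4-K730R 0.268% of all tested genes were called and no member had an unadjusted p under 0.05, as 747 tested genes had. Fos, Atf3 and Batf were nonetheless lower in all 3 TLR4-K730R control libraries than in all 3 of WT, as libraries did not overlap for 16.4% of all tested genes, with 95% confidence intervals of -0.41 to 0.02, -0.42 to 0.30 and -0.64 to 0.05. In TLR4-K810R 1.58% were called and 1 member, Fos, had an unadjusted p under 0.05, as 1366 tested genes had. Fos was lower in all 3 TLR4-K810R control libraries than in all 3 WT control libraries, 32.2 ± 4.07 against 44.1 ± 1.84 FPKM (SD, n = 3 each), with a log2 difference of -0.45 (SE 0.10, 95% confidence interval -0.66 to -0.23, adjusted p = 0.0206 from limma). Atf3 and Egr1 also had no overlap between these groups, and libraries did not overlap for 20.8% of all tested genes. The call was reached with array weights (adjusted p = 0.00706) and on leaving out replicate 2 of TLR4-K810R control (log2 difference -0.54, adjusted p = 0.00850). At the same threshold it was not reached in any other setting or on leaving out any other library (adjusted p 0.0113 to 0.143). Markers of other cells differed in both mutants. The summed level of 8 listed mesothelium and fibroblast markers (of 9) was 118 to 281 FPKM in TLR4-K810R control and 32.0 to 50.4 in WT control, with none of the 8 at 0 throughout either group, and 4 of the 7 tested (Wt1, Col1a1, Col1a2 and Dcn) were called higher. The 8 intestinal epithelium markers summed to 11.5 to 52.6 FPKM against 0.12 to 0.59, with 1 called higher (Fabp1), and 7 of them (all but Lgals4) were at 0 in every WT control library. In TLR4-K730R control the same sums were 60.2 to 70.3 and 7.53 to 37.1 FPKM, also with no overlap with WT control, and none of the 7 and 4 tested genes of these lists was called. The 5 listed mast cell markers (of 6) summed to 4.70 to 5.25 FPKM in WT control, against 0.49 to 2.58 in TLR4-K730R and 0.80 to 2.64 in TLR4-K810R control, with none of the 3 tested called, and the neutrophil marker Retnlg was called lower in TLR4-K730R control. The part of these cells in the Fos, Atf3 and Batf differences was not tested, and in bulk RNA fewer cells and less RNA per cell cannot be told apart.

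After LPS, no member was called with limma between either mutant and WT. No tested gene was called in TLR4-K730R (0%), where libraries did not overlap for 10.9%, and 746 had an unadjusted p under 0.05, and in TLR4-K810R 0.134% were called and 2118 had an unadjusted p under 0.05. Both members under that p, Fos and Atf3, belonged to TLR4-K810R. Fos was 17.9 ± 0.59 FPKM in TLR4-K810R and 15.2 ± 1.26 in WT (SD, n = 3 each), with no overlap and a log2 difference of 0.23 (95% confidence interval 0.01 to 0.44, adjusted p = 0.211), of which 0.11 was the shift of the median gene. Atf3 was 106 ± 4.47 FPKM in TLR4-K810R and 155 ± 33.4 in WT (SD, n = 3 each), with no overlap and a log2 difference of -0.52 (95% confidence interval -0.88 to -0.17, adjusted p = 0.0990). Libraries did not overlap for 25.3% of all tested genes.

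The Atf3 result turned on replicates 3 of WT LPS and of TLR4-K730R LPS. They were left out for their likeness to another genotype, a choice that by itself widens differences between genotypes, so that p-values without them are too small, and without both the share of all tested genes called rose to 5.94% in TLR4-K810R and 1.66% in TLR4-K730R. In this setting Atf3 was called lower in TLR4-K810R (log2 difference -0.72, adjusted p = 0.000278 from limma) and in TLR4-K730R (-0.62, adjusted p = 0.00264), the single member called in each comparison. With all libraries, TLR4-K730R differed from WT by -0.21 (95% confidence interval -0.57 to 0.14). Array weights, which give less weight to libraries far from their group, also called Atf3 in TLR4-K810R (-0.64, adjusted p = 0.00725), with 3.77% of all tested genes. Fosl2 was not called in any of these settings, and with all libraries it differed from WT by 0.19 in TLR4-K730R (95% confidence interval -0.04 to 0.42) and by -0.11 in TLR4-K810R (-0.34 to 0.12). The intervals for Batf were -0.48 to 0.21 and -0.52 to 0.17, and those for Maff -0.11 to 0.86 and -0.27 to 0.70, in TLR4-K730R and TLR4-K810R. The differences of Maff were 0.37 and 0.21, and without both libraries 0.87 (adjusted p = 0.0133) and 0.50 (adjusted p = 0.0554). Those of Batf were -0.14 and -0.18, and without both -0.45 (adjusted p = 0.117) and -0.34 (adjusted p = 0.113). Of the marker lists, S100a9 was called higher in TLR4-K810R after LPS (log2 difference 1.42, SE 0.22), and its part in these results was not tested. It stood at 0 to 0.22 FPKM in WT LPS, near the floor, where a 0 can be a missing row.

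**Figure D5:**
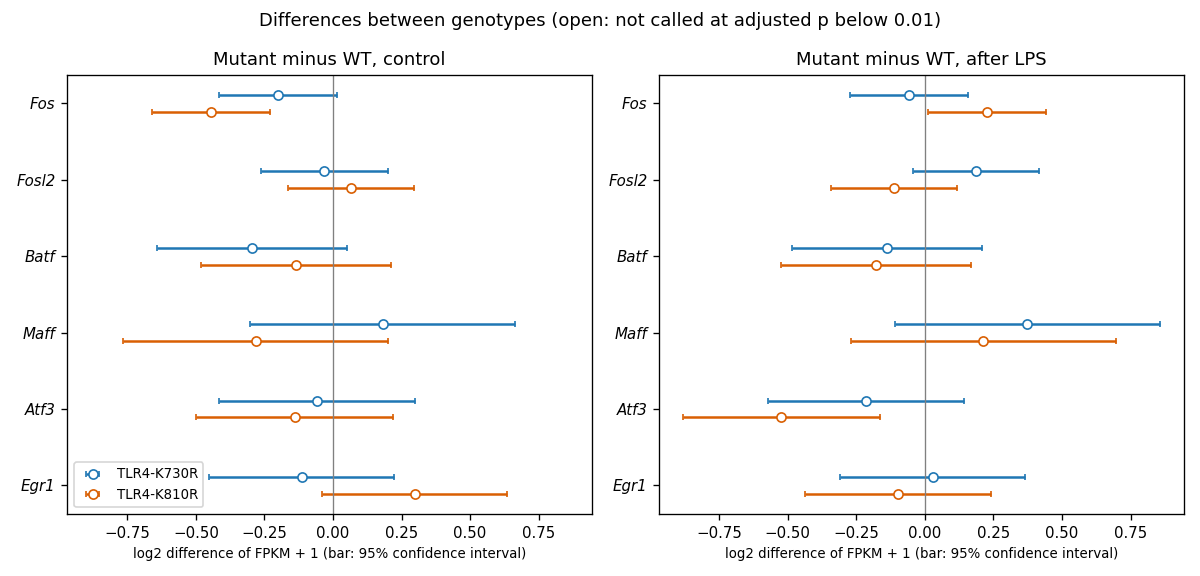
Log2 differences of FPKM + 1 between each mutant and WT for the 6 tested members, in control (left) and after LPS (right), with 95% confidence intervals (open points did not pass an adjusted p below 0.01). The Fos interval of TLR4-K810R lies below 0 in control and just above 0 after LPS, and the Atf3 interval of TLR4-K810R lies below 0 after LPS.

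The response itself was compared between genotypes with the difference of the differences. No member passed the threshold of limma in TLR4-K730R, where 0.0412% of all tested genes were called and 681 had an unadjusted p under 0.05, none of them a member. In TLR4-K810R 0.124% were called, no member passed and Fos was the 1 member among the 1277 genes with an unadjusted p under 0.05. The fall of Fos was smaller in TLR4-K810R than in WT by 0.67 (SE 0.14, 95% confidence interval 0.37 to 0.98, adjusted p = 0.0462, 0.0261 to 0.118 on leaving out 1 library, and 0.0111 without both replicates 3), with lower control levels and higher LPS levels in the mutant. After median-of-ratios scaling the Fos responses differed by 0.62 (adjusted p = 0.102 from limma), and the Fos levels after LPS by 0.08 (adjusted p = 0.737). For Fosl2 this difference was -0.18 (95% confidence interval -0.50 to 0.15) and for Batf -0.04 (-0.53 to 0.45) in TLR4-K810R. For Atf3 it was -0.16 in TLR4-K730R (-0.66 to 0.35) and -0.38 in TLR4-K810R (-0.89 to 0.12), and without both replicates 3 it was -0.56 (adjusted p = 0.0550) and -0.58 (adjusted p = 0.0160). For Maff it was 0.19 (-0.49 to 0.88) and 0.49 (-0.19 to 1.18), and without both 0.69 (adjusted p = 0.212) and 0.78 (adjusted p = 0.0639). In this setting 0.309% and 1.17% of all tested genes were called. These comparisons share the WT libraries, so that the values of both mutants are not independent of each other.

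The order of the 6 group means was largely set by LPS. For Fos it ran from WT control (44.1 FPKM) over TLR4-K730R control (38.2), TLR4-K810R control (32.2), TLR4-K810R LPS (17.9) and WT LPS (15.2) to TLR4-K730R LPS (14.6), and only the neighbours TLR4-K730R and TLR4-K810R control and the last 2 groups overlapped. For Fosl2 and Batf, no LPS library overlapped a control library, and neighbouring groups of the same treatment overlapped. Egr1 was highest in TLR4-K810R control (2.85 ± 0.56 FPKM, SD, n = 3), with no overlap with WT control (2.11 ± 0.13), although the log2 difference of 0.30 was not called (95% confidence interval -0.04 to 0.64).

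Other genes of these pathways were taken from lists of textbook members, and their counts are to be read against the 34.3%, 35.8% and 28.8% of all tested genes called after LPS in WT, TLR4-K730R and TLR4-K810R. None of the genes in the 5 lists was called between genotypes in either condition or for the difference of the responses. Of 28 other bZIP factors, 25 were listed and 23 tested, and in WT 4 were called higher and 4 lower after LPS, with a median difference of -0.08 against -0.28 over all tested genes. The largest were the rises of Batf2 (3.30, SE 0.15) and of Creb5, a CRE-binding factor (1.63, SE 0.17), and the falls of Batf3 (-2.04, SE 0.26) and of Bach1, a small MAF partner that represses haem oxygenase (-1.40, SE 0.11). All 4 were called in the same direction in both mutants, where 4 factors were called higher and 4 lower in TLR4-K730R and 6 higher and 4 lower in TLR4-K810R.

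Of 20 other early response genes, 17 were listed and 14 tested, with 5 higher and 5 lower and a median difference of 0.05 in WT. In TLR4-K730R 4 rose and 5 fell, against 3 and 2 in TLR4-K810R. Phlda1 rose by 3.55 (SE 0.25), Ier3 by 2.39 (SE 0.15) and Csrnp1 by 1.13 (SE 0.20) on the log2 scale in WT, while Nab2, a co-repressor that binds EGR proteins, fell by 1.14 (SE 0.14). The 24 genes of the MAP kinase cascade, which drives these factors, had 22 tested members, with 5 higher and 3 lower and a median difference of 0.20 in WT. In TLR4-K730R 5 rose and 5 fell, against 4 and 2 in TLR4-K810R. Map2k1, the kinase MEK1 upstream of ERK, rose by 1.53 (SE 0.09) and Mapkapk2, a kinase downstream of p38, by 1.23 (SE 0.09) in WT. Elk3, a partner of serum response factor, rose by 1.15 (SE 0.23) in WT and 1.12 (SE 0.23) in TLR4-K810R and differed by 0.67 in TLR4-K730R (adjusted p = 0.0270, not called), and Map3k5 rose by 0.91 (SE 0.20) in WT.

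All 7 textbook AP-1 targets were tested, and 5 were called higher and 1 lower in each genotype, where 10.4% of all tested genes were called higher in WT, against 9.32% in TLR4-K730R and 9.08% in TLR4-K810R, and where 23.9%, 26.5% and 19.7% were called lower. In WT the metalloproteinase genes Mmp13 and Mmp3 rose by 3.0 (SE 0.14) and 1.89 (SE 0.31) and their inhibitor Timp1 by 4.26 (SE 0.25), while the plasminogen activator gene Plau fell by 1.59 (SE 0.15) on the log2 scale. The 7 targets had a median difference of 2.24 for TLR4-K730R, 1.26 for TLR4-K810R and 1.08 for WT. Of 10 heat shock genes 7 were tested, with none higher and 1 lower (Bag3, -0.68, SE 0.13) in WT, 1 and 1 in TLR4-K730R and none and 1 in TLR4-K810R. The summed level of the 7 listed heat shock genes was 124 to 207 FPKM over the 18 libraries.

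The genes whose log2 values were most like those of a member over the 18 libraries are given as a description, since these libraries share treatment and group. Fos was closest to Gpx1 (r = 0.986), Pwwp2b (0.982) and Myo1f (0.981), all lower after LPS. Fosl2 was closest to Dusp16, a MAP kinase phosphatase gene (0.995), Il1a (0.995) and Psma5 (0.994), and Batf to Il1rn, the interleukin-1 receptor antagonist gene (0.991), Chmp4b (0.989) and Selenow (0.988). Atf3 was closest to Rab31 (0.975), Gadd45g (0.972) and the complement gene C1qa (0.971). Maff was closest to Pim3 (0.941), Ppfibp2 (0.941) and the haem oxygenase gene Hmox1 (0.938), and Egr1 to Acot1 (0.926), Rnf44 (0.926) and Tsc22d1 (0.924). Among the members, Fos and Fosl2 ran most opposite (r = -0.967) and Fosl2 and Batf most alike (0.965), with 18 libraries each.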

How the data were processed

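Peritoneal macrophage RNA of 18 libraries, 6 groups of 3 by the genotype and treatment in the labels, was column-purified and sequenced at GENEWIZ on an Illumina instrument. FPKM values were deposited by the authors, 1 row per transcript event (20 kinds, 80071 to 90401 rows per library) with an Ensembl gene number. The program, aligner and counting are not given in the sources used here. The submitters' processing notes name hg18, a human build, whereas 14126 of 14138 gene numbers and 92.5% of rows match the mouse annotation GENCODE vM21 (GRCm38). Rows off the strand or span of their gene were dropped (6.24% of first-exon and last-exon FPKM).

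The gene value was the higher of both sums. limma 3.58.1 (R 4.3.3) was run on log2(FPKM + 1) for the 9707 genes reaching 1 FPKM in 3 or more libraries, with 1 coefficient per group, an intensity trend and Benjamini-Hochberg adjustment, and calls were made at an adjusted p below 0.01, as in the study's methods. Without counts no count test was possible. Gene values used pandas 2.3.3 in Python 3.11.15, and the test was checked on simulated data. Alternatives covered pseudocount, filters, scaling, trend, array weights, replicate block, groups in the fit, rows used, threshold and left-out libraries. Named were all members, up to 4 genes per list with the largest called LPS differences in WT, and 3 genes per member with the highest Pearson r. One marker list is not reported here. Members and lists were chosen with earlier results of these data known.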

Additional observations from a re-analysis of the deposited data

How the results depend on the processing

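Of 1053 alternative values of 54 member comparisons, 1009 kept their direction and their side of the threshold. Members called after LPS numbered 6 in WT at an adjusted p below 0.05 (3 at 0.01). In TLR4-K730R 3 were called instead of 5 without the filter, with the replicate block and with both groups fitted alone, the lost ones being Atf3 and Maff each time, and 3 to 5 on leaving out 1 library. Between TLR4-K810R and WT in control, 1 member (Fos) was called with array weights and at an adjusted p below 0.05, and 0 to 1 on leaving out 1 library, that 1 without replicate 2 of TLR4-K810R control. After LPS, 1 (Atf3) was called with array weights in TLR4-K810R, and 1 in each mutant without both LPS libraries closer to another genotype, a setting chosen after seeing the data. For the difference of the responses in TLR4-K810R, 1 (Fos) was called at an adjusted p below 0.05, although its adjusted p from limma was 0.102 after median-of-ratios scaling. Leaving out 1 library changed the count in no other comparison, and the replicate block changed no other call. Replicate numbers do not pair the libraries (45 same-number pairs, r -0.32 to 0.0993, none above 0.1).

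Direction changed only for differences that were not called. These were Fosl2 between TLR4-K730R and WT in control (0.0058 with array weights, -0.11 to 0.0297 without 1 library), Fosl2 in TLR4-K810R control (-0.0219 after scaling), and in TLR4-K730R after LPS Fos (-0.10 to 0.0033), Batf (-0.30 to 0.0181) and Egr1 (-0.11 to 0.14), each without 1 library. The difference of the Batf response was -0.0476 with array weights, -0.15 without both libraries and -0.00359 to 0.31 without 1 library in TLR4-K730R, and -0.21 to 0.0893 without 1 library in TLR4-K810R. The cause was not tested. Median-of-ratios scaling moved the share of higher genes among all LPS calls from 30.4% to 52.2% in WT, 26.1% to 53.5% in TLR4-K730R and 31.5% to 51.5% in TLR4-K810R, and from 38.5% to 21.1% between TLR4-K810R and WT after LPS. Maff and Egr1 could not be tested from last-exon rows alone, and Egr1 was not tested with a minimum of 5 FPKM. No depth is known.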
